A study of Mus musculus with 12 samples.

Results

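Glutamate receptors and the proteins that hold them at the synapse were examined as a set of 34 genes. They were chosen by name and by class, with earlier results of these data known: 4 AMPA receptor subunits, 5 kainate receptor subunits, 6 NMDA receptor subunits, 1 delta receptor subunit, 7 metabotropic receptors, 2 auxiliary subunits of AMPA receptors and 9 scaffold proteins of the postsynapse. Of these 34 genes, 31 could be measured among the 18193 genes of the array. Grin1, the obligatory subunit of NMDA receptors, Grm6, the metabotropic receptor of retinal ON bipolar cells, and Shank2, a postsynaptic scaffold protein, are named by no probe set in the table that pairs probe sets with genes, and were not analysed here.

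The study addressed DNA repair in medulloblastomas (MBs), tumors of the cerebellum, that arise in mice lacking both XRCC4, a factor of canonical non-homologous end-joining, and p53. The 12 Affymetrix mouse arrays comprised MBs of 8 mice, whole cerebellum (WC) of 2 mice and cerebellar granule neural progenitors (CGNP) of 2 mice, with 1 array per mouse, and a sample is named below by its group and the number of its mouse. The MBs came from Nestin-Cre p53-/- Xrcc4 c/- or c/c mice, in which Cre driven by Nestin deletes Xrcc4 in neural progenitors of many kinds. The study describes the WC and CGNP donors as non-neoplastic control animals matched in age and genotype, the labels call both normal tissue, and neither gives the age of a mouse. Whether the WC and CGNP donors were of the same age is thus not known, and the part of age in their differences was not tested. The labels call the MBs tumor tissue and the study calls them MB cells, some of which were also kept in culture.

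Glutamate is the main excitatory transmitter of the brain. AMPA, kainate and NMDA receptors are ion channels of 4 subunits that open when glutamate binds, whereas metabotropic receptors act through G proteins, and auxiliary subunits and scaffold proteins carry receptors to the synapse and anchor them there. In the cerebellum, mature granule neurons receive glutamate from mossy fibers and release it onto Purkinje cells, and their progenitors, which divide in the outer layer of the young cerebellum, are the cells from which many MBs derive.

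The deposited values are log2 levels after GCRMA, so a difference of 1 is a 2-fold difference in signal, and the lowest value on the arrays was 2.2. A group mean under 2.5 is called close to the floor here, and a difference from it is a lower bound. The arrays of a group resembled each other, with a correlation across genes of 0.972 to 0.992 between MBs, 0.994 between the 2 CGNP samples and 0.995 between the 2 WC samples. MB_706 stood apart in RNA quality, where control probe sets read 2.94 log2 units more at the 3′ than at the 5′ end. The same gap was 0.559 to 0.816 in 7 MBs and 0.154 to 0.523 in WC and CGNP.

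Cell type markers were checked before the receptors. WC held the defining markers of mature cerebellum, with Gabra6 of granule neurons at a mean log2 level of 13.1 and Pcp2 of Purkinje cells at 10.8. Atoh1, which defines granule progenitors, stood at 2.76 in WC, 5.95 in CGNP and 11.9 in MBs. The CGNP samples also held Gad1, the glutamate decarboxylase of inhibitory interneurons, at 10.1 and Aqp4 of astroglia at 9.20, and their mean level over 6 mesenchymal markers was 6.97 to 7.19, against 4.43 to 4.63 in WC. The samples labelled CGNP were therefore not progenitors alone by these markers.

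Most of the glutamate receptor genes that differed were lower in MBs. Against WC, 19 of the 31 measured members fell and 2 rose, while 10 did not pass the test (limma, adjusted p under 0.05 over all genes), and the median log2 difference was -1.28, against 0 over all genes. Over all genes tested, 21.8% were called lower and 22.2% higher in this comparison. Against CGNP, 13 members fell, 1 rose and 17 did not pass, with a median of -0.37, where 18.6% of all genes were called lower and 18.7% higher. Between the normal tissues, 12 members were lower in CGNP than in WC, 5 were higher and 14 did not pass, with a median of -0.66, where 13.6% of all genes were called lower and 14.9% higher. Without CGNP_2705 or WC_2646 the count higher in CGNP was 2, and without CGNP_2698 or WC_2647 it was 3, leaving out Shank1, which lies at the floor. Without either WC sample the count higher in MBs than in WC was 1, and without CGNP_2705, MB_1206, MB_1207 or MB_794 the count higher in MBs than in CGNP was 2. On arrays shifted to the same median, which moved the median of all genes in MBs against WC and CGNP by -0.20 and -0.11, 9857 genes were called lower and 3563 higher against WC, in place of 3966 and 4043, and 20 members were lower and 2 higher, with Grin2a and Shank1, at the floor in all samples, left out.

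In these bulk samples, fewer cells of a type and less RNA per cell cannot be told apart. MBs and CGNP are each compared with the same WC samples, and both normal tissues with the same MBs, so the 3 comparisons are not independent. With 2 samples in each normal tissue, leaving out 1 of them leaves a lone sample that is assumed to vary like the other groups. Groups this small can lie apart by chance, and how many of all genes had groups that did not overlap was not counted.

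**Figure D1:**
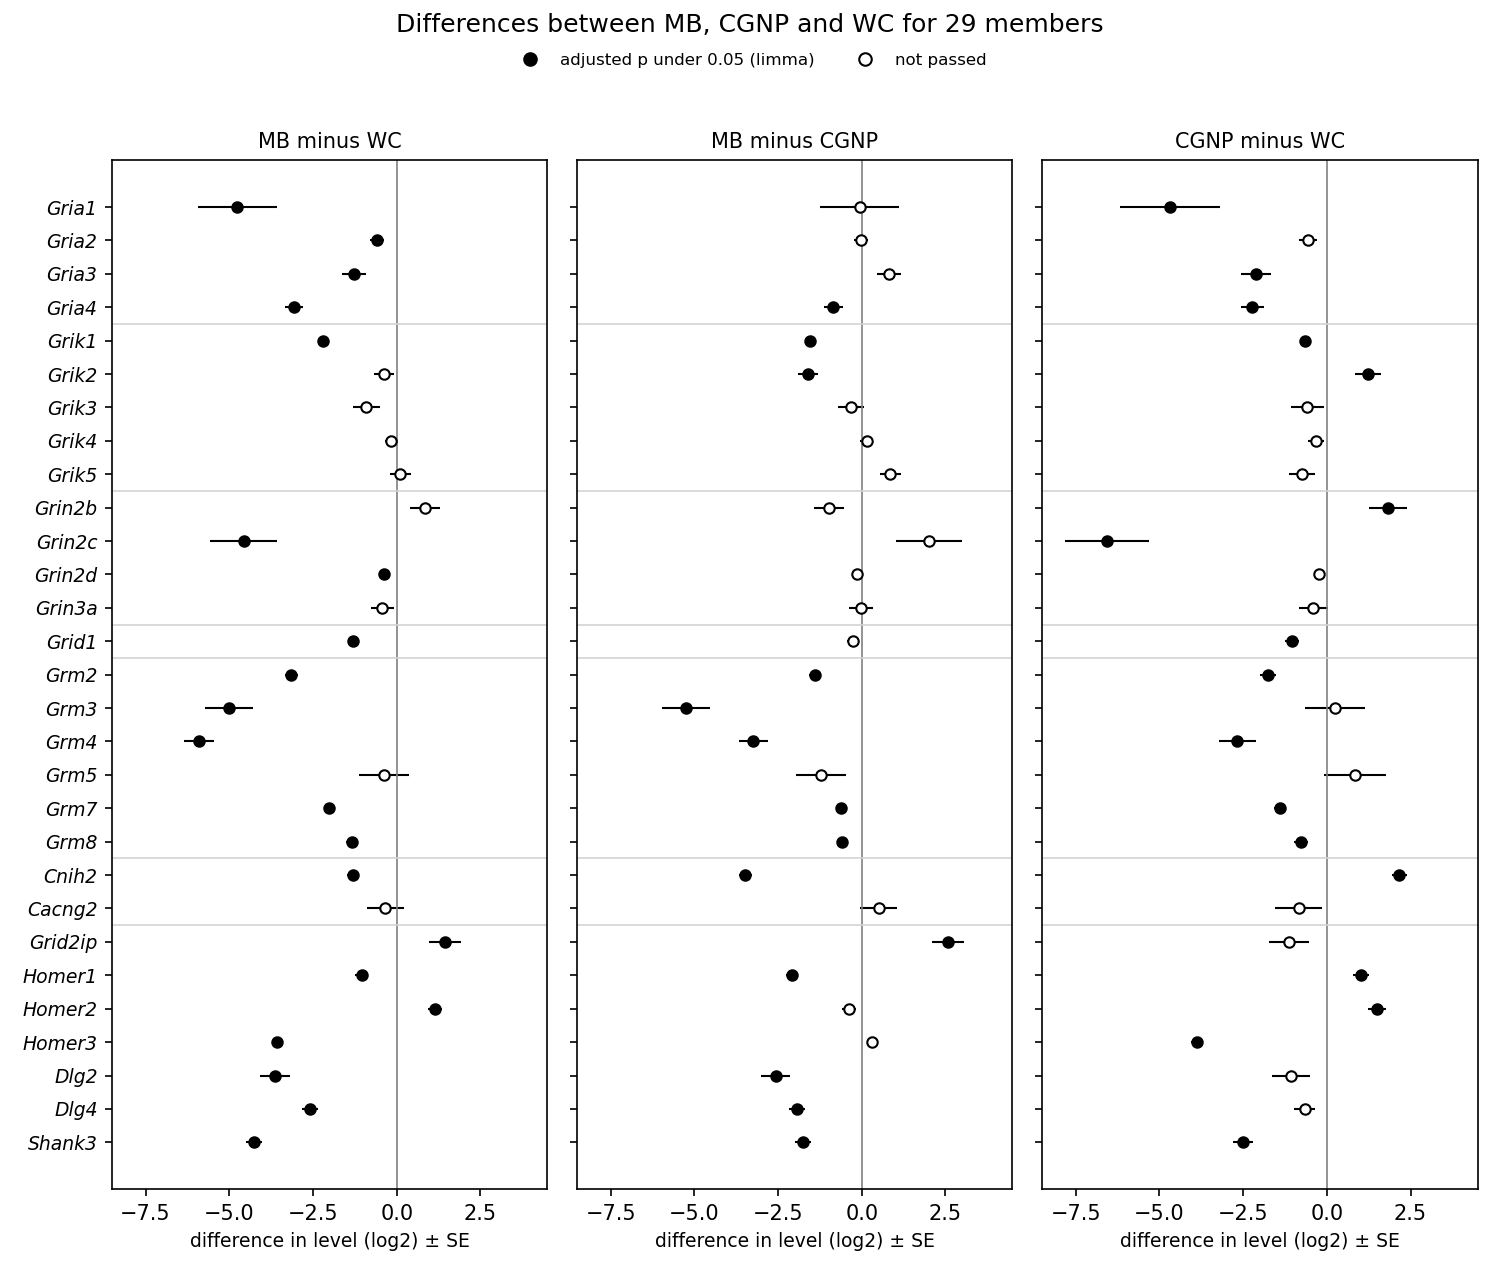
Difference in log2 level between the group means (points) with its standard error (bars) for 29 members in 3 comparisons, ordered by receptor class from AMPA subunits at the top to scaffold proteins at the bottom, with grey lines between classes. Filled points passed the test (limma, adjusted p under 0.05), and Grin2a and Shank1, at the floor in all samples, are left out. Filled points lie mostly left of 0 in MB minus WC, with Grid2ip and Homer2 to the right.

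All 4 AMPA receptor subunits were called lower in MBs than in WC, by very different amounts, against 21.8% of all genes. Gria1 had a log2 level of 10.65 and 10.76 in the 2 WC samples and of 6.34 and 5.66 in the 2 CGNP samples, and ranged in MBs from 2.78 over a median of 6.63 to 7.51. The MBs lay below both WC samples and on both sides of CGNP, and fell by 4.76 ± 1.18 (SE) on the log2 scale against WC (adjusted p = 0.00776). MB_1207 and MB_1224 had the least Gria1, at 2.78 and 3.82, and the other 6 MBs were at 5.91 or above.

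Gria2 encodes the subunit that, after RNA editing, makes AMPA receptors impermeable to calcium. It stood at 10.91 in both WC samples, at 10.49 and 10.21 in CGNP and at 9.88, 10.42 and 10.67 as the lowest, median and highest of the MBs. MBs and CGNP overlapped, and the MBs, all below WC, fell by 0.59 ± 0.20 against it (adjusted p = 0.0377), the smallest difference of the class. The promoter of Gria2 is shown because it holds one of the motifs searched, the right-hand part of RE1, the element bound by the repressor REST, in capitals on its other strand. It is the 250 bases before the RefSeq start on the minus strand, at chr3:80802836-80803085 of GRCm38.p6.
Gria2: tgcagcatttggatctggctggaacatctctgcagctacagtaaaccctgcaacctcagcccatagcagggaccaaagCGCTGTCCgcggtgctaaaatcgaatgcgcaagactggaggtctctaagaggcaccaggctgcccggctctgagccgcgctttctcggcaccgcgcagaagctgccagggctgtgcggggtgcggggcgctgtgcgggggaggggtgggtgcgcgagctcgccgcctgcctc

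Gria3 stood at 9.36 and 9.25 in WC, at 7.35 and 7.05 in CGNP and at 6.88, 8.10 and 8.69 in MBs. It fell by 1.28 ± 0.36 in MBs against WC (adjusted p = 0.0146) and fell by 2.11 ± 0.45 in CGNP (adjusted p = 0.00598). MB_1206 alone lay below CGNP, and the other 7 MBs lay above both CGNP samples. MBs were 0.83 ± 0.36 above CGNP, which did not pass (adjusted p = 0.101). Without MB_1206 the difference was 0.99 (adjusted p = 0.00264), and on its brightest probe set alone it was 1.17 (adjusted p = 0.0266).

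Gria4, a subunit of fast-gating AMPA receptors, formed 3 groups that did not overlap. Its level was 9.94 and 9.70 in WC, 7.65 and 7.54 in CGNP and 6.19, 6.70 and 7.23 in MBs. It fell by 3.07 ± 0.27 in MBs against WC (adjusted p = 8.87e-06) and fell by 0.84 ± 0.27 against CGNP (adjusted p = 0.0337), and fell by 2.22 ± 0.34 in CGNP against WC (adjusted p = 0.000874). In CGNP, Gria1 fell by 4.70 ± 1.49 against WC (adjusted p = 0.0408), whereas the difference in Gria2 of -0.56 ± 0.26 did not pass (adjusted p = 0.145).

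Several of these calls rest on few samples. Against WC, the calls of Gria1, Gria2 and Gria3 in MBs were lost without WC_2646 (adjusted p = 0.0537, 0.162 and 0.1) and without WC_2647 (adjusted p = 0.0576, 0.157 and 0.0717), and that of Gria2 also without MB_1197 (adjusted p = 0.0599) or MB_1207 (adjusted p = 0.0517). Quantile normalization ended the call of Gria2 (adjusted p = 0.0656) and the brightest probe set that of Gria3 (-0.89, adjusted p = 0.0709). The lower level of Gria4 in MBs than in CGNP was not called without CGNP_2698 (adjusted p = 0.179), CGNP_2705 (adjusted p = 0.127) or any of MB_1206, MB_1207 and MB_1224 (adjusted p = 0.0514, 0.0525 and 0.0537), and the difference was -0.36 on its brightest probe set (adjusted p = 0.439). The call of Gria1 between CGNP and WC was lost in 8 of the 12 fits that left out a sample, with adjusted p from 0.0101 to 0.16 over the 12, and on its brightest probe set (adjusted p = 0.0634).

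**Figure D2:**
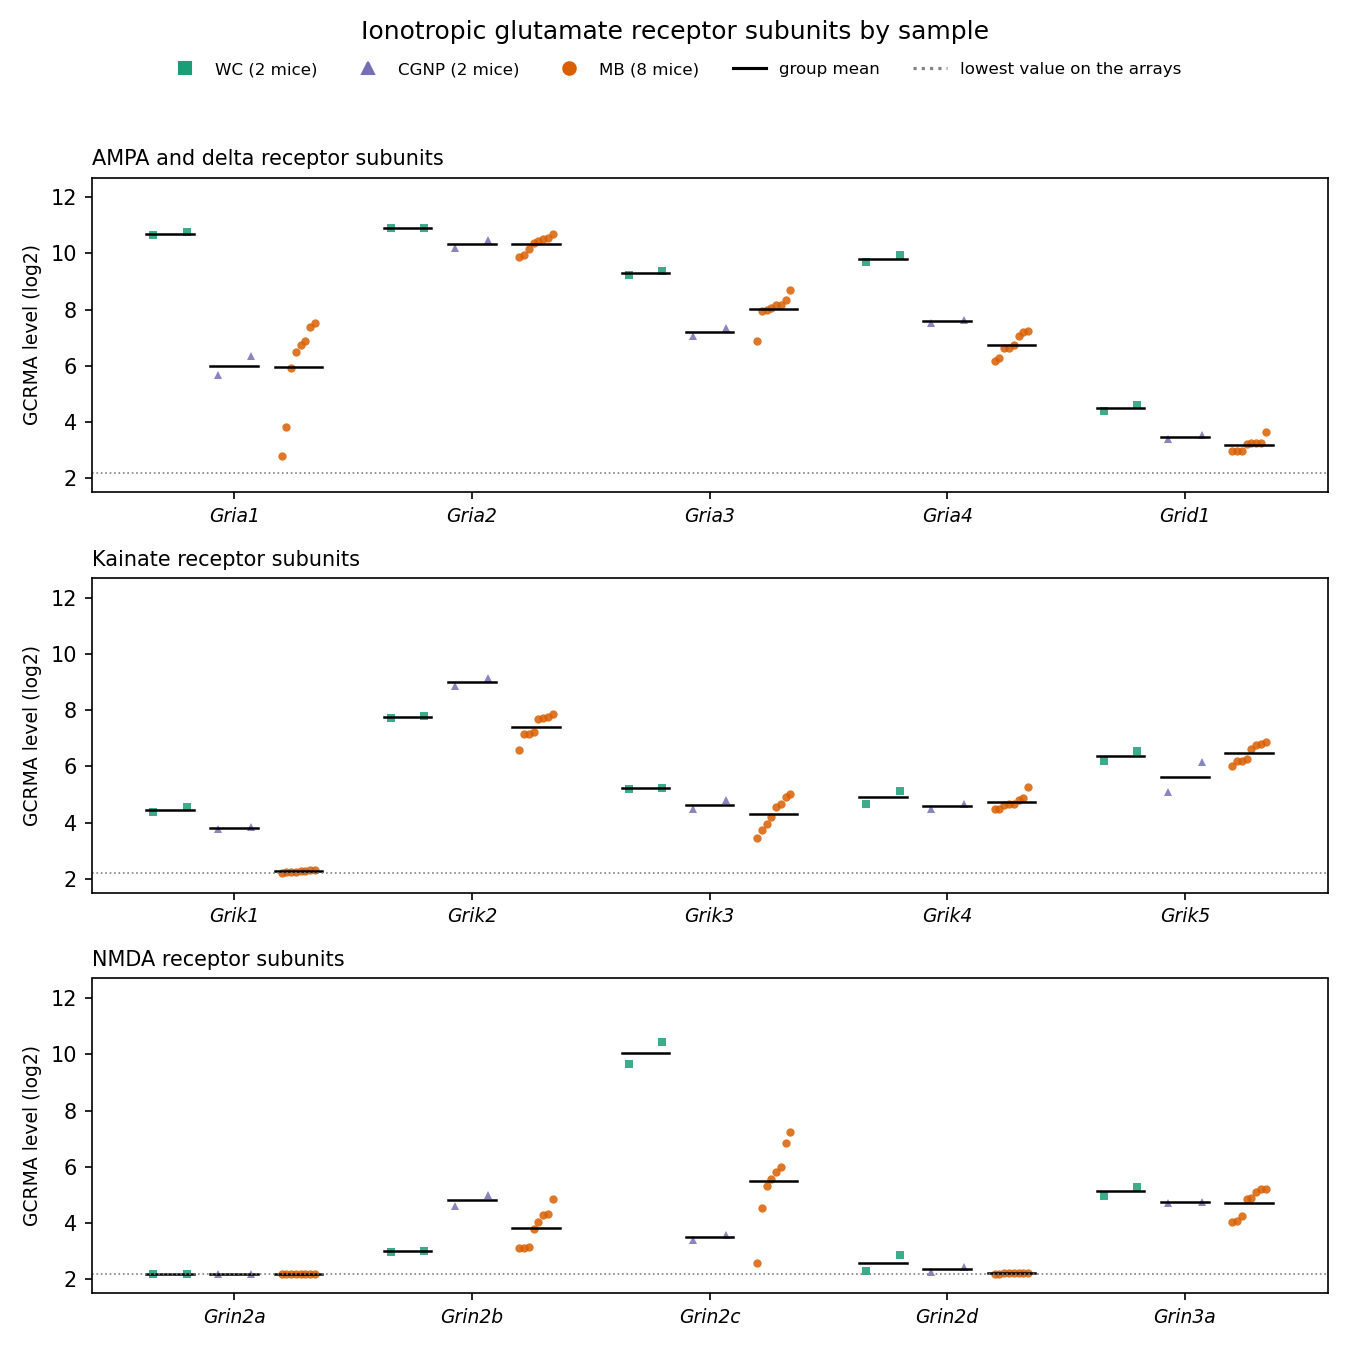
GCRMA level (log2) of the 15 measured ionotropic receptor subunits in each of the 12 samples, with WC as squares, CGNP as triangles and MBs as circles, spread sideways by rank, black bars at the group means and a dotted line at the lowest value on the arrays. Gria1 and Grin2c span 4.73 and 4.64 log2 units among the 8 MBs, against 0.80 for Gria2.

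Among the kainate receptor subunits, 1 of 5 fell in MBs against WC and 2 of 5 against CGNP. Of all genes, 21.8% were called lower against WC and 18.6% against CGNP, so the share against WC (20%) was near that of all genes. Grik1, which forms channels on its own or with other subunits, was at 4.56 and 4.36 in WC and 3.78 and 3.83 in CGNP, and at 2.22 to 2.33 in all 8 MBs, close to the floor. The groups did not overlap, CGNP and WC differed by -0.66 ± 0.06 (adjusted p = 2.32e-05), and Grik1 was lower in MBs by at least 2.19 against WC (adjusted p = 2.8e-10) and by at least 1.54 against CGNP (adjusted p = 1e-08). One of its 2 probe sets sat at the floor in all samples, and on the other MBs were lower by at least 4.39 and 3.07 and CGNP and WC differed by -1.32.

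Grik2, a pore-forming kainate subunit, was highest in CGNP. Its level was 9.15 and 8.85 in CGNP, 7.72 and 7.81 in WC and 6.58, 7.45 and 7.87 in MBs, so that MBs and WC overlapped and CGNP lay above both. Grik2 fell by 1.61 ± 0.30 in MBs against CGNP (adjusted p = 0.00199; -1.03 on its brightest probe set), and was higher in CGNP than in WC by 1.24 ± 0.38 (adjusted p = 0.0367). The second of these calls was lost without any 1 of the 4 normal samples (adjusted p = 0.0794 to 0.166). Against WC, MBs differed by -0.37 ± 0.30 (adjusted p = 0.412).

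The remaining kainate subunits, Grik3, Grik4 and Grik5, passed in no comparison. Grik3 stood at 5.23 and 5.2 in WC, above all MBs (3.47, 4.37 and 5.02 as lowest, median and highest), a difference of -0.90 ± 0.39 (adjusted p = 0.0906) that passed on arrays shifted to the same median (-1.10, adjusted p = 0.022) and among genes filtered on level (adjusted p = 0.0442). A probe set of Grik3 sat at the floor in all samples. On its other probe set the mean was 8.24 in WC and 6.43 in MBs, a difference of -1.80. Grik4 and Grik5, high-affinity subunits that need a partner of the other kind to form a channel, differed between MBs and WC by -0.17 ± 0.19 and 0.10 ± 0.31. Both signs turned under some alternatives, that of Grik5 to -0.09 on arrays shifted to the same median and that of Grik4 to 0.06 without WC_2646. For Grik4, CGNP_2698, WC_2647 and MB_630 shared the value 4.67108, so its small differences are not read as similar levels. Grik5 was 0.85 ± 0.31 higher in MBs than in CGNP (adjusted p = 0.0566), its CGNP samples lay far apart at 5.07 and 6.16, and without CGNP_2705 the difference was 1.39 (adjusted p = 0.0144). It also passed without MB_794 (0.92, adjusted p = 0.044) and with the filter on level (adjusted p = 0.0258), and without CGNP_2705 Grik5 was lower in CGNP than in WC (-1.29, adjusted p = 0.046).

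The NMDA receptor subunits went in different directions. Grin2c, which replaces Grin2b as granule neurons mature, had a level of 9.67 and 10.45 in WC and of 3.41 and 3.58 in CGNP, and ranged in MBs from 2.59 over a median of 5.70 to 7.24. No MB reached the WC level, and MB_1207 alone lay below CGNP. Grin2c fell by 4.57 ± 0.99 in MBs (adjusted p = 0.00362) and fell by 6.57 ± 1.26 in CGNP (adjusted p = 0.00315) against WC. MBs exceeded CGNP by 2.0 ± 0.99, which did not pass (adjusted p = 0.153) but was 2.42 without MB_1207 (adjusted p = 0.0154).

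Grin2b, the partner of Grin1 in the immature brain, ran the other way between the normal tissues. It was at 5.01 and 4.61 in CGNP, at 3.01 and 2.98 in WC and at 3.11, 3.91 and 4.86 in MBs, so that all MBs lay above WC. Its rise of 1.82 ± 0.57 from WC to CGNP passed (adjusted p = 0.0393), while the differences of MBs from WC (0.84 ± 0.45, adjusted p = 0.178) and from CGNP (-0.98 ± 0.45, adjusted p = 0.124) did not. Of its 4 probe sets, 2 lay close to the floor everywhere, and the others were higher in CGNP than in WC by 4.10 and 3.10 and higher in MBs than in WC by 1.75 and 1.57. The call between CGNP and WC was lost without any 1 of the 4 normal samples (adjusted p = 0.0867 to 0.17) and without MB_1207 (adjusted p = 0.0519) or MB_1224 (adjusted p = 0.0554), and the difference from CGNP passed at -1.13 without MB_1187 (adjusted p = 0.0471) and at -1.09 on arrays shifted to the same median (adjusted p = 0.0475).

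The other NMDA subunits were low or similar. Grin2a, the adult partner of Grin1, was at the floor in all 12 samples on its single probe set, so no difference is given. A probe set that does not respond and absent RNA cannot be told apart here. Grin2d, a subunit of slowly closing channels, was at 2.21 in all MBs and at 2.88 and 2.30 in WC, and was lower in MBs by at least 0.38 (adjusted p = 0.0184). Without WC_2646 this was at least 0.09 (adjusted p = 0.183) and without WC_2647 at least 0.67, and on the probe set above the floor it was at least 0.76. CGNP, at 2.45 and 2.28, was itself close to the floor, and its difference from WC passed without WC_2647 alone (-0.52, adjusted p = 8.82e-05). Grin3a, which lowers the calcium flow of NMDA receptors, differed by -0.43 ± 0.35 between MBs and WC and by -0.03 ± 0.35 between MBs and CGNP and passed in no comparison.

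Grid1 belongs to the delta receptors, which bind cerebellins and do not open on glutamate binding alone. It stood at 4.62 and 4.38 in WC, at 3.39 and 3.54 in CGNP and at 2.97, 3.23 and 3.65 in MBs. It fell by 1.31 ± 0.16 in MBs (adjusted p = 9.48e-05) and fell by 1.04 ± 0.21 in CGNP (adjusted p = 0.00381) against WC. The MBs overlapped CGNP, with a difference of -0.27 ± 0.16 (adjusted p = 0.253) that was -0.33 without MB_706, its highest value (adjusted p = 0.0416). One of its 2 probe sets lay close to the floor, and on the other the differences from WC were -2.49 in MBs and -1.98 in CGNP.

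Of the 6 measured metabotropic receptors, 5 fell in MBs against WC and 5 against CGNP, where 21.8% and 18.6% of all genes were called lower. Grm2, Grm3, Grm4, Grm7 and Grm8, which couple to inhibitory G proteins, were called in both, and Grm5, which couples to Gq, in neither. Grm4, a receptor of granule neuron terminals, was at 11.71 and 11.68 in WC, at 8.96 and 9.08 in CGNP and at 5.47, 5.50 and 7.37 in MBs. The 3 groups did not overlap. Of the 8 MBs, 3 shared the lowest value (within 0.0001), so the differences of MBs are taken as lower bounds here too. Grm4 was lower in MBs by at least 5.91 against WC (adjusted p = 2.75e-06) and by at least 3.24 against CGNP (adjusted p = 0.000263), and fell by 2.67 ± 0.56 in CGNP against WC (adjusted p = 0.00534).

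Grm3, a receptor of both glia and neurons, separated MBs from both normal tissues. It stood at 9.32 and 9.17 in WC and at 9.52 and 9.45 in CGNP, and at 2.97, 3.98 and 5.61 in MBs, with no overlap. It fell by 5.02 ± 0.72 in MBs against WC (adjusted p = 0.000244) and fell by 5.26 ± 0.72 against CGNP (adjusted p = 0.000253), whereas CGNP and WC differed by 0.24 ± 0.91. MB_1206 and MB_1207 shared the value 3.38372, but MB_1224 was lower, at 2.97, and what the shared value means for the falls was not tested. Aqp4 of astroglia, at 9.07 and 8.94 in WC, 9.24 and 9.16 in CGNP and 3.98, 5.59 and 6.82 in MBs, was also called lower in MBs against both. Of 9 astroglial markers, 7 were called lower in MBs against WC and 4 against CGNP, with 0 higher in either. Of all genes, 21.8% and 18.6% were called lower in these comparisons. The part of astroglia in the difference of Grm3 was not tested.

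Grm2, which is found in cerebellar Golgi cells, was at 5.53 and 5.29 in WC, at 4.16 and 3.17 in CGNP and at 2.24 to 2.30 in MBs, close to the floor. It was lower in MBs by at least 3.14 against WC (adjusted p = 5.31e-07) and by at least 1.40 against CGNP (adjusted p = 0.000233), and the latter was at least 0.90 without CGNP_2698 (adjusted p = 2.04e-05). The interneuron marker Gad1 stood at 12.22 and 12.28 in WC, 10.11 and 10.14 in CGNP and 2.53, 4.57 and 7.52 in MBs, and its part in the difference of Grm2 was not tested either.

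The promoters of Grm2 and Grm3 are shown as those of the member with the other part of RE1 and of the member that differed most between MBs and CGNP. Each is the 250 bases before the RefSeq start on the minus strand of GRCm38.p6, at chr9:106656110-106656359 for Grm2 and chr5:9725353-9725602 for Grm3. Capitals mark the left-hand part of RE1, and Grm3 holds none of the motifs searched.
Grm2: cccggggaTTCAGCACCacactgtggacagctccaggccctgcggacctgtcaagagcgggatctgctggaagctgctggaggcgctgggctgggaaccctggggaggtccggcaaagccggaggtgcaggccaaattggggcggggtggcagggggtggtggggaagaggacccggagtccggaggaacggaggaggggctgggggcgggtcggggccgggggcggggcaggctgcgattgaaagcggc
Grm3: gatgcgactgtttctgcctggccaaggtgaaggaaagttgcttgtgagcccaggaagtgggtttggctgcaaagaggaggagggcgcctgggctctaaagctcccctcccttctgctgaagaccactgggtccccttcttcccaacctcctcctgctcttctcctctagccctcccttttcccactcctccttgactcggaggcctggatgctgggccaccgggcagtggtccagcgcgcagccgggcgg

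RefSeq promoters, from 250 bases before to 50 after the start, were at hand for 23 of the 34 members, in 33 windows. The left-hand part of RE1, TTCAGCACC, was found on either strand in 1 of the 33 windows (Grm2) and in 0.371% of all 32851 windows in the table. Its right-hand part, GGACAGCG, was found in 1 (Gria2) and in 1.26% of all. The cyclic AMP response element TGACGTCA was found in 0 of the 33 and in 1.79% of all, and the E-box CAGATG, read by ATOH1 and NEUROD1, in 1 (Dlg2) and in 17.2% of all. The motifs do not overlap in these windows, and a match is a description only.

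Grm7 and Grm8, presynaptic receptors of the same group as Grm4, were close to the floor in MBs. Grm7 stood at 4.52 and 4.46 in WC, at 3.19 and 3.01 in CGNP and at 2.25, 2.5 and 2.76 in MBs, lower by at least 2.01 against WC (adjusted p = 1.54e-06) and at least 0.62 against CGNP (adjusted p = 0.00542). On its brightest probe set the differences of MBs were -4.65 and -1.75, and CGNP and WC differed by -2.90. Grm8 was at 2.2 or 2.21 in every MB, at 3.80 and 3.31 in WC and at 2.41 and 3.18 in CGNP, lower in MBs by at least 1.35 against WC (adjusted p = 8.7e-05) and at least 0.59 against CGNP (adjusted p = 0.0181). Against CGNP, the call of Grm7 was lost without CGNP_2698 (adjusted p = 0.0705) and that of Grm8 without CGNP_2705, when it was lower by at least 0.21 (adjusted p = 0.325). Without CGNP_2698 Grm8 was lower by at least 0.97.

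Between the normal tissues, Grm2, Grm7 and Grm8 were lower in CGNP than in WC, with differences of -1.75 ± 0.24, -1.39 ± 0.18 and -0.76 ± 0.21 (adjusted p = 0.000389, 0.000242 and 0.0215). The last was not called without CGNP_2698 (difference -0.38, adjusted p = 0.11) or WC_2646 (adjusted p = 0.166), and was -1.14 without CGNP_2705. Grm5 was at 4.65 and 4.40 in WC, at 5.41 and 5.33 in CGNP and at 2.86, 4.36 and 5.52 in MBs, a span that covered both normal tissues. Its difference was -0.37 ± 0.74 against WC and -1.21 ± 0.74 against CGNP (adjusted p = 0.849 and 0.258).

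**Figure D3:**
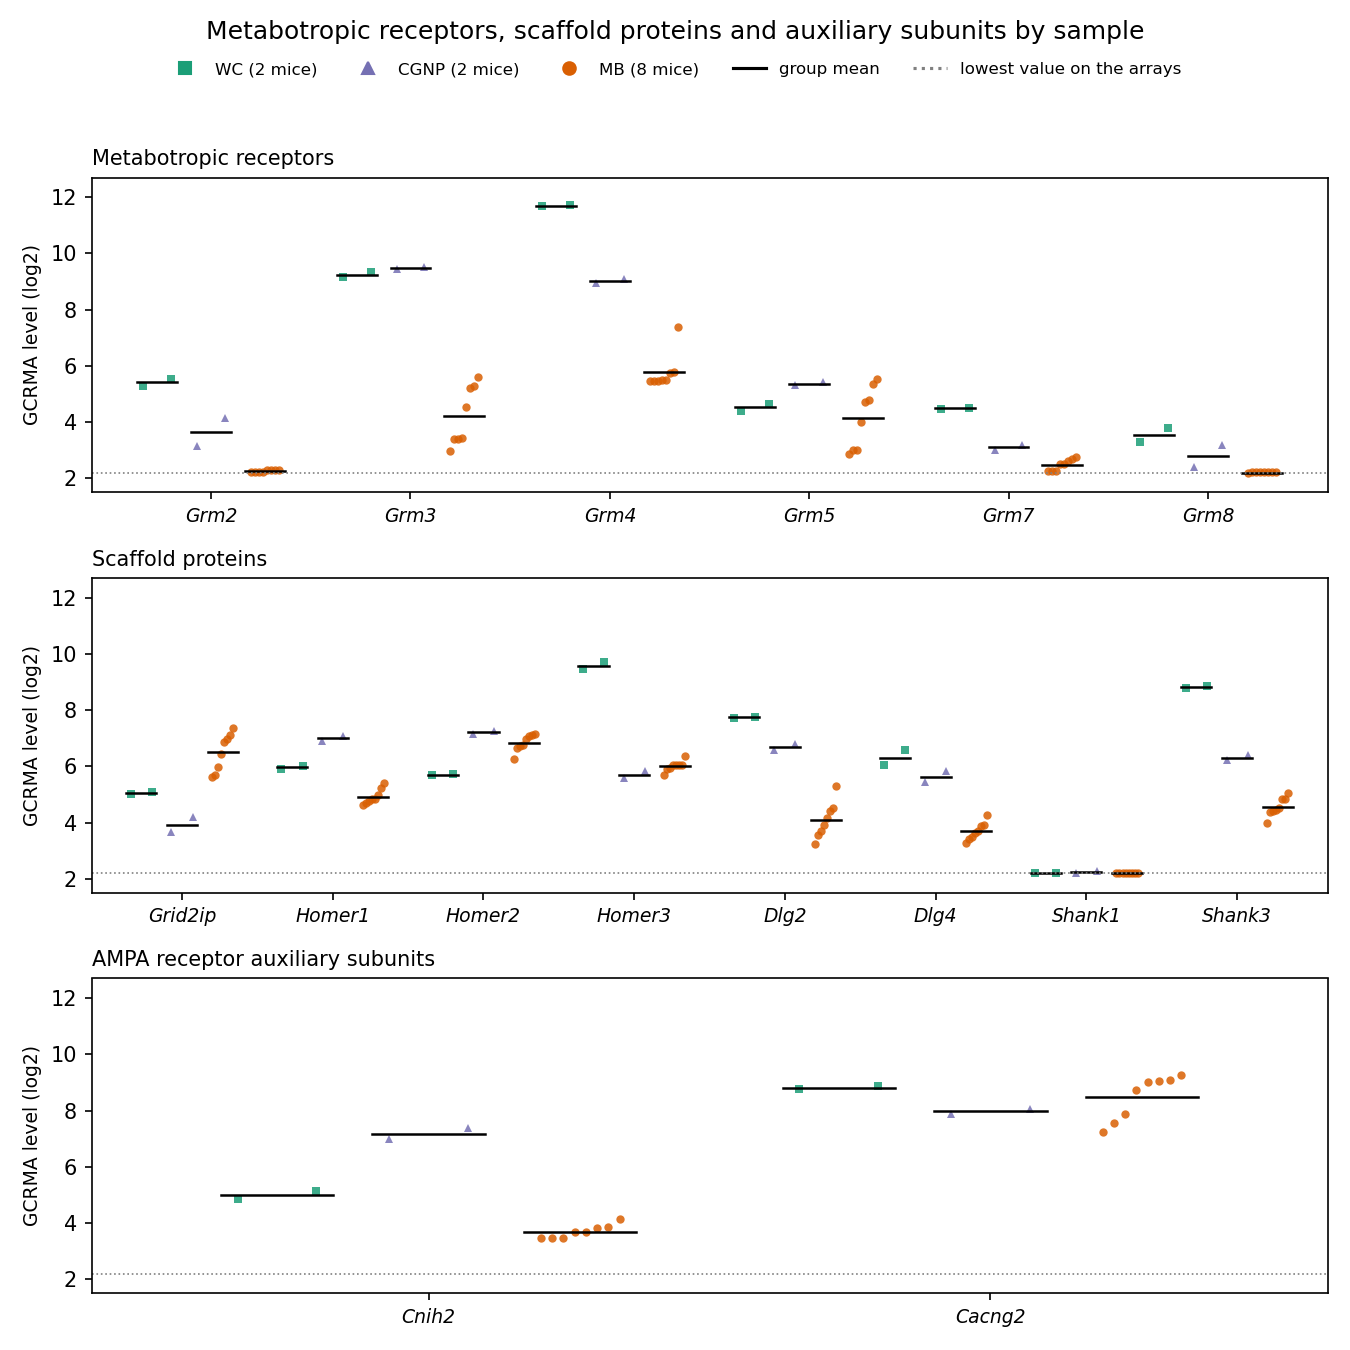
GCRMA level (log2) of the 6 measured metabotropic receptors, the 8 measured scaffold proteins and the 2 auxiliary subunits in each of the 12 samples, with WC as squares, CGNP as triangles and MBs as circles, spread sideways by rank, black bars at the group means and a dotted line at the lowest value on the arrays. Grm3 separates the MBs (2.97 to 5.61) from both normal tissues (9.17 to 9.52), and in Grid2ip the MBs (5.61 to 7.36) lie above WC and CGNP.

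The 2 auxiliary subunits of AMPA receptors behaved differently. Cnih2, a cornichon protein that slows the closing of AMPA receptors, was at 7.37 and 6.99 in CGNP, at 5.16 and 4.86 in WC and at 3.46, 3.70 and 4.13 in MBs, in 3 groups that did not overlap. It fell by 3.47 ± 0.18 in MBs against CGNP (adjusted p = 4.78e-07) and fell by 1.31 ± 0.18 against WC (adjusted p = 0.000222), and was higher in CGNP than in WC by 2.17 ± 0.23 (adjusted p = 8.24e-05). MB_1206 and MB_794 shared the value 3.46434, so the falls of Cnih2 in MBs may be lower bounds. Cacng2, or stargazin, which carries AMPA receptors to the surface of granule neurons, was at 8.86 and 8.77 in WC, at 8.07 and 7.88 in CGNP and at 7.23, 8.87 and 9.28 in MBs. Its MB range covered both normal tissues, and it passed in no comparison, with -0.34 ± 0.55 against WC (adjusted p = 0.784) and 0.50 ± 0.55 against CGNP (adjusted p = 0.607).

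The scaffold proteins held both members that rose in MBs against WC, beside 5 of 8 that fell. Of all genes, 22.2% were called higher and 21.8% lower in that comparison. Grid2ip, or delphilin, a scaffold protein of Purkinje cell synapses, was at 5.03 and 5.09 in WC, at 3.66 and 4.20 in CGNP and at 5.61, 6.65 and 7.36 in MBs. All 8 MBs lay above all 4 normal samples. Grid2ip rose by 1.44 ± 0.47 against WC (adjusted p = 0.0302) and by 2.57 ± 0.47 against CGNP (adjusted p = 0.00159). The call against WC was lost without WC_2646 (adjusted p = 0.148), without WC_2647 (adjusted p = 0.128) and with array weights (adjusted p = 0.0579).

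The 3 Homer proteins, which link metabotropic receptors of the Gq type to their calcium stores, had 3 different patterns. Homer1 was highest in CGNP, at 6.91 and 7.09, against 5.91 and 6.02 in WC and 4.63, 4.83 and 5.40 in MBs, with no overlap. It fell by 2.08 ± 0.19 in MBs against CGNP (adjusted p = 1.63e-05) and fell by 1.05 ± 0.19 against WC (adjusted p = 0.00107), and was higher in CGNP than in WC by 1.03 ± 0.24 (adjusted p = 0.00863). The last call was lost without CGNP_2705 (adjusted p = 0.056) or WC_2646 (adjusted p = 0.0517).

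Homer2 was higher in both MBs and CGNP than in WC. Its level was 5.70 and 5.72 in WC, 7.27 and 7.16 in CGNP and 6.25, 6.87 and 7.17 in MBs. It rose by 1.13 ± 0.21 in MBs (adjusted p = 0.0014) and by 1.51 ± 0.27 in CGNP (adjusted p = 0.00201) against WC, while MBs overlapped CGNP and differed by -0.37 ± 0.21 (adjusted p = 0.213). One of its 3 probe sets lay close to the floor, and on the brightest the rise was 2.28 in MBs and 2.39 in CGNP.

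Homer3, which is abundant in Purkinje cells, was high in WC alone. It stood at 9.71 and 9.45 in WC, at 5.58 and 5.84 in CGNP and at 5.69, 6.05 and 6.37 in MBs, and fell by 3.56 ± 0.15 in MBs (adjusted p = 3.43e-08) and fell by 3.87 ± 0.18 in CGNP (adjusted p = 2.25e-07). MBs and CGNP overlapped. MB_1206 and MB_794 shared the value 6.05235, but other MBs were lower, down to 5.69, and what the shared value means for the fall was not tested. The mean level of 8 Purkinje cell markers was 10.3 in both WC samples, 3.68 and 3.71 in CGNP and 3.11 to 5.95 in MBs, and all 8 were called lower in both MBs and CGNP against WC. Their part in the difference of Homer3 was not tested.

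Dlg2, Dlg4 and Shank3 were called lower in MBs against both WC and CGNP, where 21.8% and 18.6% of all genes were called lower. Dlg2 and Dlg4 are membrane-associated guanylate kinases that anchor NMDA receptors. Dlg2 was at 7.71 and 7.77 in WC, at 6.78 and 6.57 in CGNP and at 3.25, 4.04 and 5.32 in MBs, where it fell by 3.64 ± 0.44 against WC (adjusted p = 8.3e-05) and fell by 2.57 ± 0.44 against CGNP (adjusted p = 0.00116). Dlg4 was at 6.57 and 6.03 in WC, at 5.45 and 5.83 in CGNP and at 3.28, 3.66 and 4.28 in MBs, where it fell by 2.59 ± 0.25 (adjusted p = 1.6e-05) and fell by 1.93 ± 0.25 (adjusted p = 0.000178).

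Shank3, which joins the complexes of Dlg4 and Homer to the actin skeleton, was at 8.88 and 8.78 in WC, at 6.41 and 6.22 in CGNP and at 3.98, 4.49 and 5.04 in MBs. It fell by 4.27 ± 0.23 in MBs against WC (adjusted p = 2.85e-07) and fell by 1.76 ± 0.23 against CGNP (adjusted p = 0.00022), and fell by 2.51 ± 0.30 in CGNP against WC (adjusted p = 0.000151). MB_1197 and MB_706 shared the value 4.85138, but other MBs were lower, down to 3.98. The shared value is thus not the lowest of the MBs, and what it means for the falls of Shank3 was not tested. Shank1 was at 2.2 to 2.28 in all samples, so no difference is given. Dlg2 and Dlg4 differed between CGNP and WC by -1.07 ± 0.56 and -0.66 ± 0.32, and neither passed (adjusted p = 0.2 and 0.16).

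The spread among the 8 MBs differed widely between members. For the 12 members with a mean level above 5 in MBs the median SD was 0.48, against 0.27 for the 8289 genes above that level. The widest were Gria1 (SD 1.73), Grin2c (SD 1.45), Grm5 (SD 1.09), Grm3 (SD 1.05) and Cacng2 (SD 0.80), and Gria2, Homer1 and Homer3 had SDs of 0.29, 0.27 and 0.19. MB_1207 was the lowest MB for Gria1, Grin2c, Grm5 and Dlg2, and had the lowest mean over all 31 members, 4.53, against up to 5.08 in MB_1197. It was also the lowest MB in its mean over the astroglial (5.02), granule neuron (5.95), oligodendrocyte (3.42), Purkinje cell (3.11) and interneuron and unipolar brush cell lists (2.72), and its array had the lowest weight of the 12 (0.619). Their part in these levels was not tested, and without MB_1207 there were 18 members lower and 2 higher in MBs against WC and 12 lower and 2 higher against CGNP.

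MB_630 was the highest MB for Grm4, Grm5 and Dlg2. It also had the highest mean among MBs for the markers of granule neurons (8.31, against 5.95 to 6.96 in the others), Purkinje cells (5.95, against 3.11 to 4.28), interneurons and unipolar brush cells (4.13, against 2.72 to 3.26) and mesenchymal cells (6.41, against 3.03 to 4.13). Their part in the level of Grm4 was not tested, and without MB_630 the counts were the same as with it in MBs against WC (19 lower, 2 higher) and against CGNP (13 lower, 1 higher). MB_706, which stood apart in RNA quality, was the highest MB for Gria1, Gria2, Gria3, Grid1, Grm3, Grm7 and Cacng2. It was the lowest for Grik2, Homer1 and Homer2. The part of RNA quality in these levels was not tested. Without MB_706, 19 members were lower and 2 higher against WC, and 14 lower and 1 higher against CGNP.

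**Figure D4:**
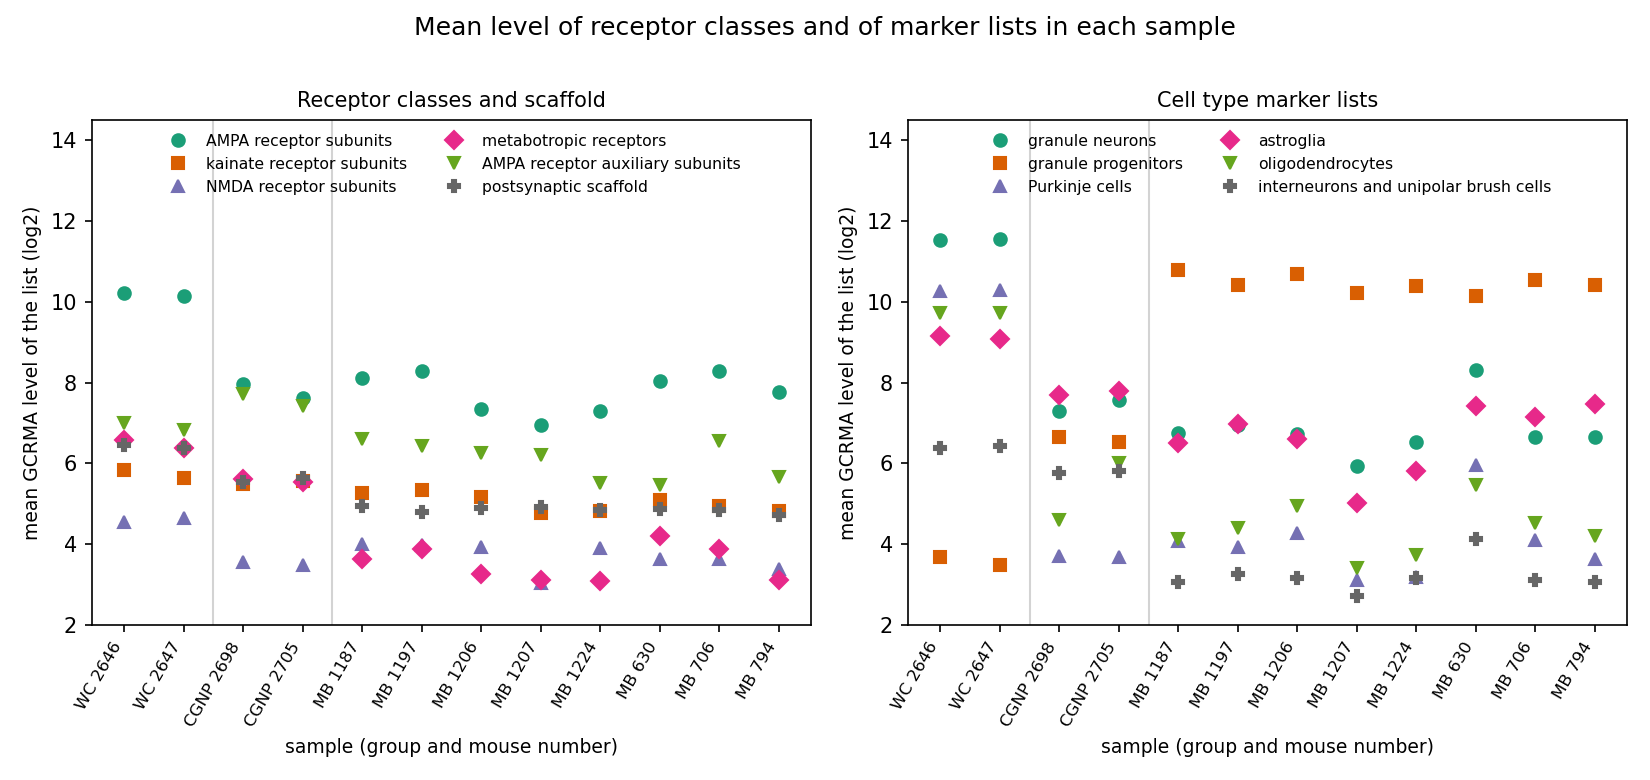
Mean GCRMA level (log2) of 6 classes of members (left) and of 6 cell type marker lists (right) in each of the 12 samples, ordered as WC, CGNP and MBs with grey lines between groups. The metabotropic receptors lie at 6.38 to 6.59 in WC and 3.09 to 4.21 in MBs, and the granule neuron markers at 11.5 in both WC samples and 5.95 to 8.31 in MBs. Levels of different lists are not compared.

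The cell type markers differed between the groups as well. Of all genes, 21.8% were called lower and 22.2% higher in MBs against WC, and 18.6% and 18.7% against CGNP. Against WC, MBs were called lower for 7 of 8 granule neuron markers, 7 of 9 astroglial, 8 of 8 oligodendrocyte and 5 of 6 interneuron and unipolar brush cell markers, and higher for 9 of 9 granule progenitor and 7 of 10 microglial markers. Against CGNP, MBs were called lower for 4 of 9 astroglial, 5 of 6 interneuron and unipolar brush cell and 6 of 6 mesenchymal markers, for 3 of 8 granule neuron and 3 of 8 oligodendrocyte markers and for 1 of 8 Purkinje cell markers. They were called higher than CGNP for 9 of 9 granule progenitor, 9 of 10 microglial, 3 of 5 oligodendrocyte precursor and 1 of 8 granule neuron markers. Endothelial markers were lower in MBs for 3 of 6 against WC and 0 of 6 against CGNP, and 5 oligodendrocyte precursor markers gave 1 higher and 1 lower against WC. The part of these cell types in the fall of the receptor genes was not tested.

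Other genes of glutamate signaling were read from 4 lists with 50 measured genes. Against WC, 28 of them fell and 5 rose in MBs, with a median of -0.71, and against CGNP 20 fell and 6 rose, with a median of -0.18. The median over all genes was 0 in both comparisons. Of all genes, 21.8% were called lower and 22.2% higher against WC, and 18.6% and 18.7% against CGNP. Among 18 other receptor and auxiliary subunits, 7 fell and 2 rose against WC, and among 20 other proteins of the postsynaptic density 13 fell and 2 rose. Of 6 genes of metabotropic signaling 4 fell and 0 rose, and of 6 glutamate transporters 4 fell and 1 rose. Grin3b, an NMDA subunit like Grin3a, differed between MBs and WC by 0.11 ± 0.08 (adjusted p = 0.338). Samples of all groups shared the value 3.4023 for Grin3b, so the small difference is not read as a similar level.

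The genes that rose included 2 partners of the receptors above. Gsg1l, an auxiliary subunit of AMPA receptors, was at 9.18, 10.08 and 10.34 in MBs, at 5.05 and 6.11 in WC and at 4.45 and 3.37 in CGNP, with no overlap. It rose by 4.42 ± 0.37 against WC (adjusted p = 6e-06) and by 6.08 against CGNP. Cbln4, a cerebellin, was at 6.73, 8.08 and 9.60 in MBs and at 2.23 to 2.39 in all 4 normal samples, close to the floor, a rise of at least 5.70 against WC and at least 5.79 against CGNP. Grip1 and Dlgap3, scaffold proteins of the postsynaptic density, rose by 3.36 ± 0.33 and 1.45 ± 0.33 against WC, and the call of Dlgap3 was lost without WC_2647 (difference 1.27, adjusted p = 0.062) and against the 4 normal samples (0.54, adjusted p = 0.368).

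Among the largest falls against WC were 2 genes of Purkinje cells. Slc1a6, their glutamate transporter, was at 10.80 and 10.79 in WC, at 2.52 in both CGNP samples and at 2.2, 2.54 and 4.30 in MBs, and fell by 8.0 ± 0.48 (adjusted p = 5.59e-07). Rgs8, a regulator of G protein signaling, was at 12.27 and 12.39 in WC, at 2.30 and 2.37 in CGNP and at 2.39, 4.78 and 7.30 in MBs, and fell by 7.68 ± 1.07 (adjusted p = 0.000203). Shisa6, an auxiliary subunit of AMPA receptors, and Nptx1, a secreted pentraxin that gathers them, differed between MBs and WC by -4.98 ± 0.36 and -4.33 ± 0.84, and both were called. Against the 4 normal samples, the difference of Slc1a6 was -3.86 (adjusted p = 0.0856), that of Rgs8 -2.69 (adjusted p = 0.357), that of Shisa6 -2.38 (adjusted p = 0.0943) and that of Nptx1 -1.73 (adjusted p = 0.294). Camk2b, a kinase of the postsynaptic density, Lrrtm3, an adhesion protein of excitatory synapses, and Plcb4, the phospholipase downstream of Gq, were called lower too, with differences of -4.90 ± 0.71, -4.84 ± 0.44 and -3.77 ± 0.22.

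The vesicular glutamate transporters split. Slc17a6, which granule neurons use early, was at 8.12, 9.01 and 9.89 in MBs, at 11.38 and 11.64 in CGNP and at 5.84 and 6.46 in WC, in 3 groups that did not overlap. It rose by 2.94 ± 0.40 in MBs against WC (adjusted p = 0.000189) and fell by 2.42 against CGNP (adjusted p = 0.00096), and differed by 0.26 against the 4 normal samples (adjusted p = 0.961). Slc17a7, the transporter of mature granule neurons, was at 2.51, 2.64 and 2.80 in MBs, at 4.70 and 5.83 in CGNP and at 6.43 and 6.19 in WC, and fell by 3.64 ± 0.22 against WC and fell by 2.60 against CGNP.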

How the data were processed

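RNA from 12 mice was measured on Affymetrix mouse genome arrays, and the number of arrays limits the precision. GCRMA, run by the authors in the R library affy, gave the deposited log2 level of each probe set on each array. Versions of these tools are not given in the sources used here.

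After 64 control probe sets were dropped from 45101, the probe table gave a single gene to 34945, several to 932 and no gene to 9160. Gene levels were means over probe sets of a single gene without the suffixes s or x, or over all of them where no other existed (290 genes). No filter on level was applied, 18193 genes were tested, and 63 probe sets belong to the 31 measured members. Groups were read from the sample titles. The labels say of the replicates only that each is another mouse number.

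A single limma fit (version 3.58.1, R 4.3.3) of all 12 samples gave the 3 differences between MB, CGNP and WC, with moderated two-sided tests, Benjamini-Hochberg adjusted over 18193 genes at a threshold of 0.05. Tested on simulated data, it recovered 62% (MB minus WC), 74% (MB minus CGNP) and 68% (CGNP minus WC) of genes shifted by 1, and 90%, 94% and 90% of genes shifted by 2. Few genes were shifted in the simulation, all upward, whereas 22.2% were called higher and 21.8% lower in MB minus WC. The adjustment depends on how many genes differ, so these rates do not give the recovery in the real fit.

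The members and the lists, 4 of glutamate signaling and 10 of cell type markers, were chosen with earlier results of these data known, and 14 genes on them had no probe set. Named genes were all members, the 2 strongest rises and 2 strongest falls past the test per list in MB minus WC, and Grin3b. Marker lists are given as counts and means, with defining markers named. Alternatives changed the choice of probe sets (all, or the one of highest signal), the scaling (quantile, or a shift to the same median), the spread (trend and robust, or array weights), the filter on level, the test (the methods' t-test, adjusted), the reference (all 4 normal samples) and the samples, each left out in turn. Promoters were taken from RefSeq on GRCm38.p6 and figures drawn with matplotlib 3.10.9.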

Additional observations from a re-analysis of the deposited data

Results flagged for a closer look

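Single MBs stood apart in 4 members, by the gap to the nearest MB against the range of all 8 (beyond the critical value of Dixon), which chance alone flags in about 1 of 20 groups. Gria3 was lowest in MB_1206, at 6.88, with the next MB at 7.96. Grid1 was highest in MB_706, at 3.65, with the next at 3.25. Grm4 was highest in MB_630, at 7.37, with the next at 5.77. Grm8 was lowest in MB_1224, at 2.2, with the others at 2.21, all at the floor.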

How the results depend on the processing

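Over 21 alternatives, the 21 called differences of members between MBs and WC gave 436 values, of which 415 stayed past the threshold, 21 did not and 0 turned. The 14 against CGNP gave 291 values (281 stayed, 10 did not, 0 turned), and the 17 between CGNP and WC gave 335 (303 stayed, 32 did not, 0 turned). Called wherever they were tested were 13, 11 and 8 of these members, of which 9, 10 and 7 were tested in all settings and the others failed the filter on level. No paired analysis was possible because the numbers in the labels are those of single mice and no number occurs in 2 groups. The 2 samples in each normal tissue limit the precision, and a level at the floor bounds a fall from one side.

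The count of members higher in MBs than in WC was 1 with array weights and 1 against the 4 normal samples, higher than in CGNP it was 2 on the brightest probe set and 2 among the 9905 genes above level 5 in at least 2 samples, and higher in CGNP than in WC it was 1 by the methods' t-test, which called 1094 genes higher and 1099 lower over all, in place of 2703 and 2477. Members lower in MBs than in WC ranged from 15 to 20 over the alternatives, leaving out Grin2a and Shank1, which lie at the floor. Against the 4 normal samples the count was 15 of 29, where 2979 of 18193 genes were called lower. With the filter on level it was 15 of 23, where 3048 of 9905 genes were called lower. On arrays shifted to the same median it was 20 of 29, where 9857 of 18193 genes were called lower. With 1 sample left out, the higher counts ranged from 1 to 2 (MBs against WC), 1 to 2 (MBs against CGNP) and 2 to 5 (CGNP against WC). On arrays shifted to the same median, 8784 genes were lower and 3246 higher in MBs than in CGNP, in place of 3389 and 3403, and 6439 were lower and 2668 higher in CGNP than in WC, a shift of all genes by -0.08.

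Differences that were not called turned sign as follows. MBs minus CGNP became 0.38 for Gria1 and 0.28 for Grin3a on the brightest probe set, 0.0164 for Gria2 after quantile normalization and 0.23 for Gria1 with array weights. MBs minus WC became -0.0949 for Grik5 on arrays shifted to the same median. Against the 4 normal samples, the difference was -0.0702 for Grin2b and 0.0826 for Cacng2, of opposite sign to that against WC, and -0.23 for Gria3, -0.0071 for Grik4, -1.28 for Grin2c, 0.38 for Homer2, -1.63 for Homer3 and, among the other glutamate genes, 0.26 for Slc17a6 (called against CGNP), of opposite sign to that against CGNP. With 1 sample left out, MBs minus CGNP ranged from -0.40 to 0.39 for Gria1, -0.17 to 0.11 for Gria2 and -0.10 to 0.0671 for Grin3a, MBs minus WC from -0.39 to 0.0581 for Grik4 and -0.0772 to 0.28 for Grik5, and CGNP minus WC from -0.52 to 0.0655 for Grin2d. With 2 samples in each normal tissue, the difference against the 4 normal samples is the mean of those against WC and against CGNP. A shift to the same median moves all genes of an array by the same amount. The cause of the other turns was not tested.

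Against the 4 normal samples, 6 calls made against WC were lost, those of Gria1 (-2.41, adjusted p = 0.164), Gria2 (-0.31, adjusted p = 0.228), Gria3 (adjusted p = 0.815), Grin2c (adjusted p = 0.57), Homer2 (adjusted p = 0.423) and Homer3 (adjusted p = 0.114), and that of Grik2 was gained (-0.99, adjusted p = 0.034). The methods' t-test lost the calls between CGNP and WC of Grik1, Grik2, Grin2b, Grid1, Grm2, Grm8, Homer1 and Cnih2 (adjusted p = 0.0638 to 0.445), and those of Gria2 in MBs against WC (adjusted p = 0.0562) and of Gria4 against CGNP (adjusted p = 0.056). Array weights lost those of Gria4 in MBs against CGNP (adjusted p = 0.0654) and of Grin2b between CGNP and WC (adjusted p = 0.0788).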
